A study of Mus musculus with 6 samples.

Results

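The interferon regulatory factors are DNA-binding proteins that control interferon genes and interferon-stimulated genes, and some of them direct the development of blood cells. All 8 family genes considered here (Irf1, Irf2, Irf3, Irf4, Irf5, Irf7, Irf8 and Irf9) were chosen by name, and they were read by the 14 probe sets whose platform annotation names one of them and no other gene, among 18193 genes and 45037 probe sets in all. RNA came from sorted cells of mouse bone marrow with MLL-AF9, the fusion oncogene of a form of acute leukaemia. The Mn1null group (n = 3 arrays) had Mn1, the gene of a transcriptional cofactor, deleted with CRISPR-Cas9, and the Mn1wt group (n = 3 arrays) had it intact. Both groups carried an EGFP control vector and were cultured with mIL3, hIL6 and mSCF. The comparison asks which transcripts differ when Mn1 is deleted in cells with this oncogene. Whether a group came from 1 clone, and whether its replicates came from separate cultures or animals, was not stated in the labels, so each p-value reflects the spread among these 6 samples only, and that spread may be technical.

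Members of the family share an N-terminal DNA-binding domain with conserved tryptophans and bind GAAA repeats. IRF3, IRF5 and IRF7 are activated below pattern recognition receptors, IRF9 acts with STAT2 below the type I interferon receptor, and IRF1 activates genes in the interferon gamma response that IRF2 can repress. IRF8 and IRF4 are lineage factors of blood cells that bind composite sites with the ETS factor PU.1, and in the bone marrow IRF8 directs myeloid progenitors towards monocytes and dendritic cells.

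Values are log2 expression values made by the authors with RMA, a method that corrects, normalizes and summarises array signals, and a difference is the Mn1null mean minus the Mn1wt mean. Adjusted p-values come from limma, a linear model with moderated variance fitted to all 45037 probe sets, 2-sided, with Benjamini-Hochberg adjustment and a threshold of 0.05. Correlations over all probe sets were 0.997 to 0.998 within a group and 0.981 to 0.983 between groups. Mn1 itself was read by 1 probe set with means of 4.13 in Mn1null and 4.35 in Mn1wt, near the low end of the scale (limma adjusted p = 0.182 for the difference of -0.22), and where it lies relative to the deleted part was not stated in the labels, so it checks neither label. Without Mn1wt replicate 2 it differed by -0.33 and passed (limma adjusted p = 0.0214). The 5′ probe sets of the bacterial labelling controls averaged 6.47 ± 0.059 in Mn1null and 7.32 ± 0.10 in Mn1wt (SD, n = 3 each), with 7.41 and 7.89 for the middle and 8.45 and 8.75 for the 3′ probe sets. This labelling difference moved with the groups in every comparison given here, and its part in the results was not tested. Of 7 haematopoietic markers, 3 were higher and 4 did not pass (summed signal, 2 to the power of each log2 value added over the list, 28440 to 28910 in Mn1null and 23600 to 24070 in Mn1wt). Such a sum is weighted towards the brightest genes of a list. The pan-leukocyte gene Ptprc had means of 11.57 in Mn1null and 11.54 in Mn1wt and did not pass. The myeloperoxidase gene Mpo rose by 0.28 (14.11 in Mn1null and 13.84 in Mn1wt, limma adjusted p = 0.0072), the progenitor marker Cd34 by 0.79 and the myeloid integrin gene Itgam by 0.84.

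Irf8 was the family member with the clearest change, and it fell about 3-fold in Mn1null. Irf5, on 1 of its 2 probe sets, fell by a smaller amount, Irf9 rose, and Irf1, Irf2 and 1 of 4 Irf3 probe sets were slightly lower. Irf7 and Irf4, with means below the median of all probe sets (5.21), did not pass the test. In all, 6 of 14 probe sets fell and 1 rose, while 27.8% of all probe sets passed the test, 14.7% lower and 13.2% higher. These probe sets are not separate genes, since Irf8 gave 2 of the falls and Irf3 was read by 4 of the 14. Of the 14, 13 had a mean at or above the 30th percentile of all probe sets, so low signals were rarer among them. With 1 probe set per gene, 34.7% of all genes passed, 18% lower and 16.7% higher. The median difference was -0.20 over the 14 probe sets, against -3e-04 over all probe sets, and the median absolute difference was 0.23 against 0.14. Of the 14 probe sets, 10 had groups that did not overlap, 8 of them lower and 2 higher in Mn1null, while over all probe sets 41.1% had groups that did not overlap, 21.4% lower and 19.7% higher.

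**Figure D1:**
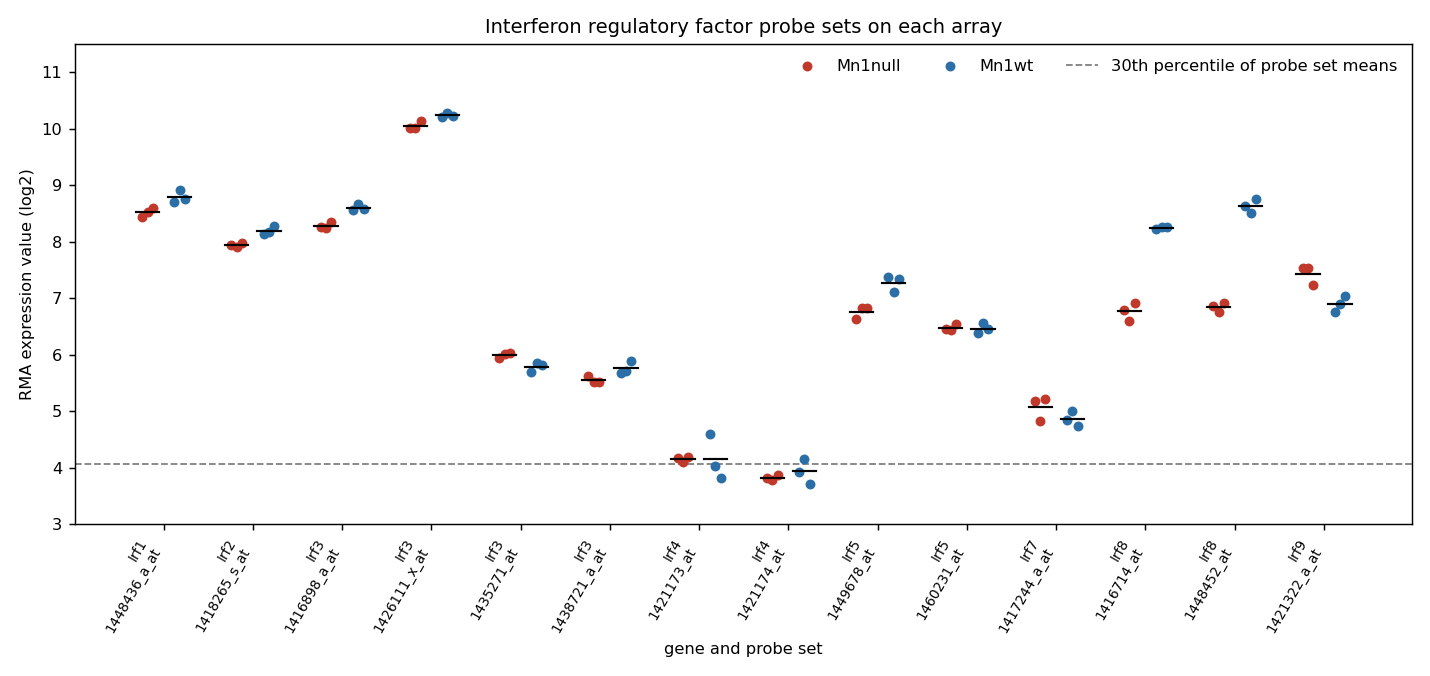
RMA values (log2) of the 14 probe sets on each array, with Mn1null in red to the left of Mn1wt in blue; points are arrays, black bars are group means and the dashed line is the 30th percentile of all probe set means (4.07). The Irf8 points of the groups lie far apart (6.59 to 6.92 in Mn1null and 8.22 to 8.75 in Mn1wt over both probe sets). The Irf4 points lie around the dashed line on 1421173_at. On 1421174_at they lie below it on all 3 Mn1null arrays and on 2 of the 3 Mn1wt arrays.

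Irf8 was read by 2 probe sets. Probe set 1448452_at gave 6.86, 6.76 and 6.91 on the Mn1null arrays, against 8.63, 8.51 and 8.75 on the Mn1wt arrays. Probe set 1416714_at gave 6.78, 6.59 and 6.92 on the Mn1null arrays, against 8.22, 8.27 and 8.26 on the Mn1wt arrays. On both, every Mn1null array was lower than every Mn1wt array by a gap far wider than the spread within a group. The first probe set differed by -1.79 ± 0.081 (SE; 95% interval -1.98 to -1.60), a 3.45-fold lower value in Mn1null (limma adjusted p = 5.32e-06). The second differed by -1.48 ± 0.089 (-1.69 to -1.27), a 2.79-fold lower value (limma adjusted p = 2.05e-05). Of all probe sets, 0.513% fell at least as much as the first and 0.697% at least as much as the second. The sizes on the 2 probe sets differed by 0.31 between them (exact permutation test, 2-sided, p = 0.10, the smallest that 3 against 3 arrays allow). In RNA of a whole population, fewer cells that express a gene and less of its RNA per cell cannot be told apart.

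Irf4, the closest relative of Irf8 and a factor of B cells, plasma cells and some dendritic cells, was near the low end of the scale in both groups. Probe set 1421173_at gave 4.17, 4.10 and 4.19 in Mn1null, against 4.60, 4.02 and 3.81 in Mn1wt. Probe set 1421174_at gave 3.82, 3.78 and 3.86 in Mn1null, against 3.92, 4.16 and 3.71 in Mn1wt. The groups overlapped on both probe sets, and the Mn1wt arrays were more spread than the Mn1null arrays. The differences were 0.0089 (95% interval -0.42 to 0.44) and -0.11 (-0.37 to 0.15), and neither passed limma's test (adjusted p = 0.980 and 0.540). At this signal a difference would be compressed.

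**Figure D2:**
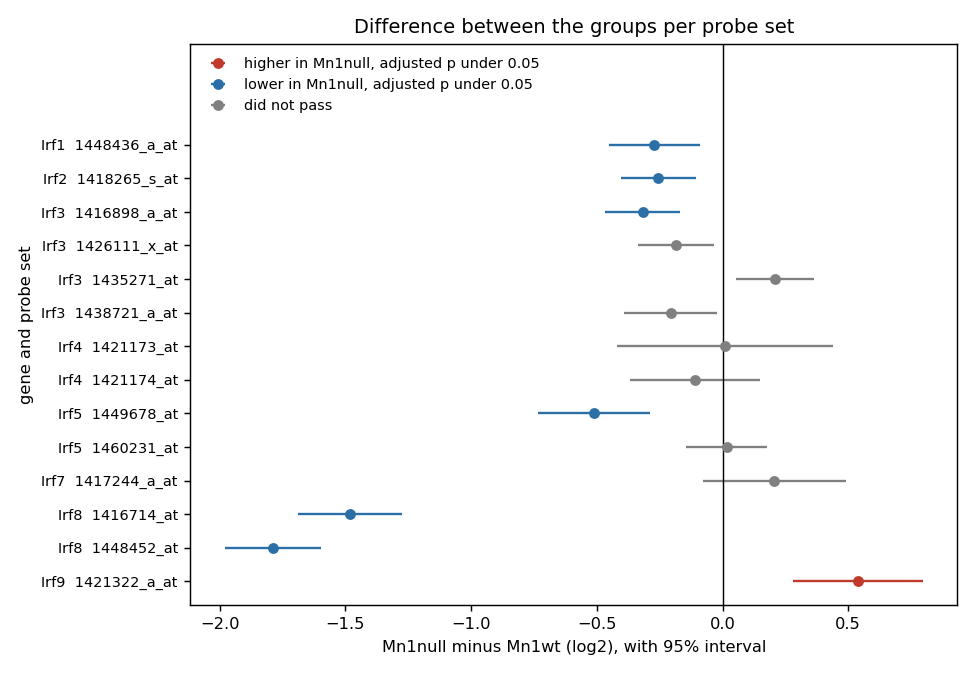
Mn1null minus Mn1wt (log2) for each probe set, with points for the estimate and bars for limma's 95% interval; red marks probe sets that rose, blue those that fell and grey those that did not pass at an adjusted p of 0.05. Both Irf8 estimates (-1.79 and -1.48) lie well below those of all other members, and Irf9 (0.54) is the 1 member that rose.

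Among the factors activated by pattern recognition receptors, Irf5, which acts below Toll-like receptors in myeloid cells, was read by 2 probe sets with unlike values. Probe set 1449678_at gave 6.64, 6.83 and 6.82 in Mn1null, against 7.38, 7.10 and 7.34 in Mn1wt. Probe set 1460231_at gave 6.45, 6.44 and 6.54 in Mn1null, against 6.38, 6.55 and 6.45 in Mn1wt. Only the first of these 2 had groups that did not overlap. It fell by 0.51 ± 0.095 (SE), a 1.42-fold lower value (limma adjusted p = 0.00551), while the second differed by 0.016 with an interval of -0.15 to 0.18 (adjusted p = 0.906). The difference between these 2 estimates was -0.53 (exact permutation test, p = 0.10, the smallest possible; 0.15 after Benjamini-Hochberg adjustment over 9 pairs of probe sets of the same gene). The labels do not say which transcripts each probe set reads.

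Irf3, which is expressed widely and is activated by TBK1, was read by 4 probe sets. Probe set 1416898_a_at gave 8.25, 8.25 and 8.35 in Mn1null, against 8.55, 8.66 and 8.58 in Mn1wt, and fell by 0.32 ± 0.064 (SE; limma adjusted p = 0.00784). Probe set 1426111_x_at, whose suffix marks possible cross-hybridisation, gave 10.01, 10.02 and 10.14 in Mn1null, against 10.21, 10.28 and 10.22 in Mn1wt. Its groups did not overlap, and its difference of -0.18 did not pass (limma adjusted p = 0.0739). The remaining pair also had groups that did not overlap but lay on opposite sides of 0, with -0.21 for 1438721_a_at (limma adjusted p = 0.0980) and 0.21 for 1435271_at (0.0551). With the mean of the 4 probe sets the gene differed by -0.13 and was not called (limma adjusted p = 0.0984), so no direction is given for Irf3 as a gene. Irf7, which amplifies type I interferon production and is itself induced by interferon, gave 5.18, 4.82 and 5.21 in Mn1null, against 4.84, 5.01 and 4.74 in Mn1wt on probe set 1417244_a_at. These groups overlapped, and the estimate was 0.21 (95% interval -0.078 to 0.49; limma adjusted p = 0.278).

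Irf9, the DNA-binding subunit of ISGF3, was the 1 member that rose. Probe set 1421322_a_at gave 7.54, 7.53 and 7.23 on the Mn1null arrays, against 6.75, 6.90 and 7.04 on the Mn1wt arrays. The lowest Mn1null value was above the highest Mn1wt value. The rise was 0.54 ± 0.11 (SE; 95% interval 0.28 to 0.80), a 1.45-fold higher value (limma adjusted p = 0.00849). Of all probe sets, 5.79% rose at least as much.

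Irf1 and Irf2, the activator and the repressor around the interferon gamma response, were both slightly lower in Mn1null. Irf1 (1448436_a_at) gave 8.43, 8.53 and 8.59 in Mn1null, against 8.71, 8.91 and 8.75 in Mn1wt, a difference of -0.27 ± 0.078 (SE; limma adjusted p = 0.0369). Irf2 (1418265_s_at) gave 7.94, 7.90 and 7.97 in Mn1null, against 8.13, 8.18 and 8.27 in Mn1wt, a difference of -0.25 ± 0.063 (limma adjusted p = 0.0202). The groups did not overlap for either gene, but both calls depended on single arrays. Irf1 lost its call without any 1 of the arrays except Mn1wt replicate 1 (adjusted p up to 0.117), and Irf2 without Mn1null replicate 1, Mn1null replicate 2 or Mn1wt replicate 3 (up to 0.0672). Of all probe sets, 27.5% differed at least as much as that of Irf1 and 29.4% at least as much as that of Irf2.

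**Figure D3:**
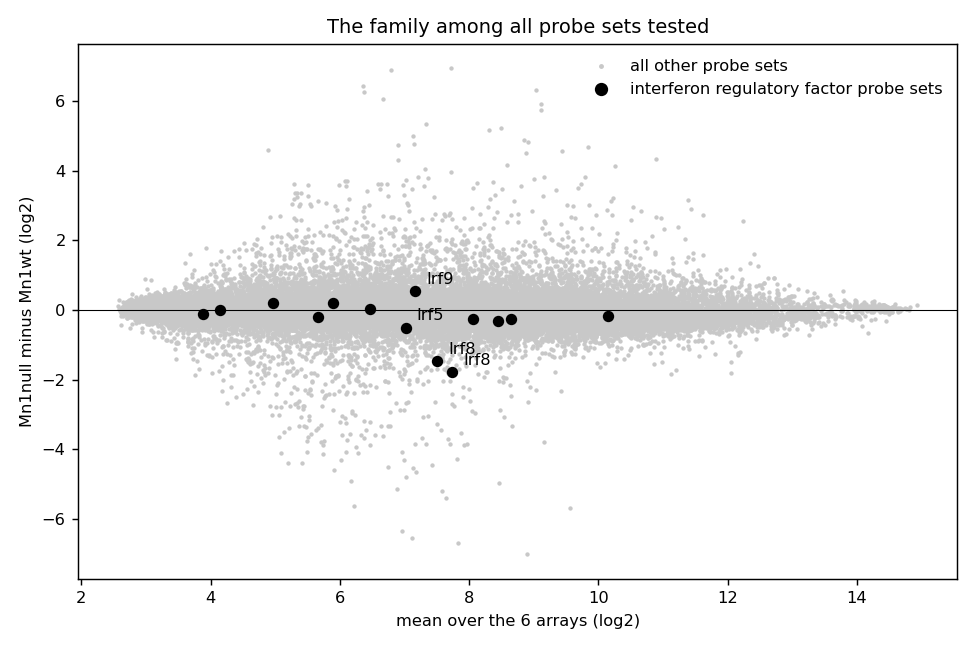
Mn1null minus Mn1wt (log2) against the mean over the 6 arrays (log2) for all probe sets tested; grey points are all other probe sets and black points the 14 of the family, labelled where the difference is at least 0.45 in size. Both Irf8 probe sets stand below most of the grey points, while the rest of the family lies among them.

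Several members of the family are themselves targets of interferon signalling, so their promoters were searched for the letters that factors of the family and PU.1 bind. RefSeq promoters (GRCm38.p6, 250 bases before to 50 bases after the start) were found for all 8 genes, 11 in all. The letters searched, on both strands, were a GAAA followed after any 2 bases by another GAAA for the interferon-stimulated response element, a GGAA followed after any 2 bases by a GAAA for the composite ETS and IRF element, and GAGGAAGT for PU.1. The promoter of Irf2, which held matches, is shown with the matched letters in capitals. Beside it is the first by position of the promoters of Irf8, the gene that fell most. None of the Irf8 promoters held a match.
Irf8, chr8:120736108-120736407, plus strand: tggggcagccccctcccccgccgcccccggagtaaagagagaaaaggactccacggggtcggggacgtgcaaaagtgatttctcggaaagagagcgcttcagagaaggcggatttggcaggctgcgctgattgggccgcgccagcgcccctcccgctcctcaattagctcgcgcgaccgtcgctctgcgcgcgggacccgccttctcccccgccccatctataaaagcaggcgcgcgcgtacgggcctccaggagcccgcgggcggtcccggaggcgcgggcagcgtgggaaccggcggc
Irf2, chr8:46739495-46739794, plus strand: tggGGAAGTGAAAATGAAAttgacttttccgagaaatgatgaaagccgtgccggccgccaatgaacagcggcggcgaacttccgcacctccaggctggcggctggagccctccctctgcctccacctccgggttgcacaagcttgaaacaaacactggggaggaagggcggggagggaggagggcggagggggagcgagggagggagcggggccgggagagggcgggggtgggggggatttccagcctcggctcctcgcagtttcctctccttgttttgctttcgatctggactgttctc
The Irf2 promoter held GAAAATGAAA from position -241 relative to the start, a match to the response element that overlaps GGAAGTGAAA from position -247, a match to the composite element. Among 32851 promoters of the same length, 3.44% held the response element letters and 2.72% the composite element. No promoter of the 8 genes held the PU.1 letters, which stood in 3.20% of all promoters. A match describes these letters only; binding was not measured.

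Genes around the family were then described from lists, with 1 probe set a gene (the one of highest mean), and over all 18193 genes so read 34.7% passed the test, 16.7% higher and 18% lower. In each of the 8 lists some genes rose and others fell. Among interferon ligands and receptors, 1 of 10 rose and 3 fell (median -0.18). The type I receptor chains Ifnar1 and Ifnar2 fell by 0.46 ± 0.076 and 0.45 ± 0.060 (SE; limma adjusted p = 0.00295 and 0.0010). Each had another probe set whose difference did not pass (-0.20 for Ifnar1 and -0.25 for Ifnar2), and a further Ifnar2 probe set fell by 0.53. The interferon gamma receptor chain Ifngr1 fell by 0.22, and its call was lost without any 1 of 5 arrays, all but Mn1wt replicate 3 (limma adjusted p up to 0.0887). Il10rb, which the interferon lambda and interleukin 10 receptors share, rose by 0.83 ± 0.056 (limma adjusted p = 3.79e-05) on its brighter probe set, while the other gave 0.096 (adjusted p = 0.578), and the mean of both gave 0.46. The ligand genes Ifnb1, Ifng, Ifna2 and Ifna4 had means under 4.8 in both groups and did not pass.

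Downstream of the receptors, 4 of 10 JAK-STAT genes rose and 2 fell (median 0.19). The kinase gene Jak2 stood at 10.00 ± 0.017 in Mn1null and 8.60 ± 0.18 in Mn1wt (SD, n = 3 each), a 2.63-fold rise (limma adjusted p = 3.53e-05). Socs1, an inhibitor of JAK kinases that interferon induces, rose 2.68-fold (limma adjusted p = 7.74e-05). Stat2, a partner of IRF9, rose by 0.67 ± 0.15 (SE; limma adjusted p = 0.0124) from a low signal, with 0.11 on the second probe set of the gene (adjusted p = 0.504). The phosphatase gene Ptpn11 fell by 0.45. Ptpn6 had a difference of -0.22 whose call was lost when any 1 of the 6 arrays was left out (limma adjusted p up to 0.124).

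The sensors and adaptors that activate IRF3, IRF5 and IRF7 moved in both directions, with 5 of 18 higher and 6 lower (median -0.095). Ifih1, which encodes the RNA sensor MDA5, stood at 8.86 ± 0.044 in Mn1null and 7.47 ± 0.14 in Mn1wt, a 2.63-fold rise (limma adjusted p = 1.94e-05). The adaptor gene Ticam1 rose by 0.47 ± 0.085 (SE), and Tlr4 by 0.45, though with 0.11 on another probe set (limma adjusted p = 0.426). Cgas, which encodes the DNA sensor cGAS, fell 1.79-fold and by similar amounts on both of its probe sets (-0.84 and -0.89). Myd88, the adaptor through which most Toll-like receptors reach IRF5 and IRF7, fell 1.73-fold (limma adjusted p = 1.32e-04), and Tlr2 fell 1.68-fold.

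Among partners and corepressors of the family, 2 of 20 rose and 3 fell (median -0.070). Spi1, which encodes PU.1, had a mean of 9.76 in Mn1null and 9.57 in Mn1wt and did not pass (0.19, limma adjusted p = 0.0935). Ikzf1, the gene of the lymphoid and myeloid factor Ikaros, fell by 0.55 ± 0.063 (SE; limma adjusted p = 5.11e-04), and Batf, an AP-1 factor that pairs with IRF4 and IRF8, fell by 0.38 ± 0.069. Jun fell by 1.35 ± 0.15 (limma adjusted p = 4.42e-04). Irf2bp2, a corepressor that binds IRF2, rose on all 4 of its probe sets, by 0.26 to 0.77. Etv6, an ETS repressor, had a difference of 0.22 on one probe set and -0.089 on the other (limma adjusted p = 0.412), and the call of the first was lost without any 1 of 5 arrays, all but Mn1null replicate 2. Without Mn1null replicate 1 the list held 3 called genes, all lower.

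Of 21 genes linked to IRF8 in monocytes and dendritic cells, 7 fell and 4 rose, with a median of -0.067. Ctss, which encodes the lysosomal protease cathepsin S, stood at 4.95 ± 0.22 in Mn1null and 10.35 ± 0.092 in Mn1wt (SD, n = 3 each; -5.39, limma adjusted p = 1.56e-07). Cybb, the catalytic subunit of the phagocyte oxidase, stood at 5.08 ± 0.17 in Mn1null and 8.41 ± 0.097 in Mn1wt, a 10.1-fold lower value on this probe set, and fell on both others too (-2.76 and -2.41). Mpeg1, a pore-forming protein of macrophages, fell 7.48-fold (limma adjusted p = 2.16e-06). Other genes of the list were higher in Mn1null, and the immediate early gene Egr1 rose 4.30-fold (limma adjusted p = 4.45e-07). The nuclear body gene Pml, which interferon induces, rose 1.47-fold and the acid ceramidase gene Asah1 1.35-fold. The list was not split into genes that IRF8 activates and genes that it represses, so its counts and median do not measure IRF8 activity. Of the list, 7 genes stand in another list as well.

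Most monocyte markers fell, as Irf8 did. Of 7 read, 5 fell and 1 rose. Csf1r, Ctss and Cx3cr1 also stand in the IRF8-linked list, so the falls of Csf1r and Ctss are counted in both lists. The summed signal of the markers was 576.7 to 585.3 on the Mn1null arrays and 7574 to 8083 on the Mn1wt arrays. Most of the Mn1wt sum came from F13a1, with means of 6.71 in Mn1null and 12.40 in Mn1wt. F13a1 fell by 5.69, Ccr2 by 3.60 and Cd14 by 2.12, and Csf1r also fell, while Adgre1 rose by 1.11. The other 3 Ccr2 probe sets fell by 2.71, 1.48 and 0.46, and the mean of the 4 by 2.06. Of 7 dendritic markers, 1 fell and 2 rose (summed signal 838.2 to 844.8 in Mn1null and 1237 to 1304 in Mn1wt), and Siglech, Xcr1 and Ccr9 had means under 5 in both groups. The fall was that of Tcf4, a factor of plasmacytoid dendritic cells, with 8.91 in Mn1null and 9.96 in Mn1wt (limma adjusted p = 2.99e-05). Tcf4 made up most of the summed dendritic signal. The cytokine receptor gene Flt3 rose by 0.72. Itgax, which encodes CD11c, rose by 0.44 (limma adjusted p = 0.0269), and its call was lost without any 1 of 5 arrays, all but Mn1wt replicate 2 (limma adjusted p up to 0.0872). Mast cell and basophil markers moved the other way, with 6 of 8 higher and 2 that did not pass (summed signal 11640 to 12200 in Mn1null and 3614 to 3736 in Mn1wt). Cpa3, the mast cell carboxypeptidase gene, rose by 4.13, the IgE receptor genes Ms4a2 and Fcer1a by 2.37 and 1.27, and the transcription factor gene Gata2 by 1.65. B cell markers were low, with 1 of 6 lower, Cd79b by 0.91, and a summed signal of 169.7 to 188.4 in Mn1null and 211.9 to 218.6 in Mn1wt. Plasma cell markers had 1 of 4 lower (Sdc1), stroma and endothelium markers 1 of 7 higher (Pecam1, by 1.78), and the 6 T and NK cell markers did not pass (limma adjusted p of 0.321 or more). The part of these marker differences in the change of Irf8 was not tested.

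**Figure D4:**
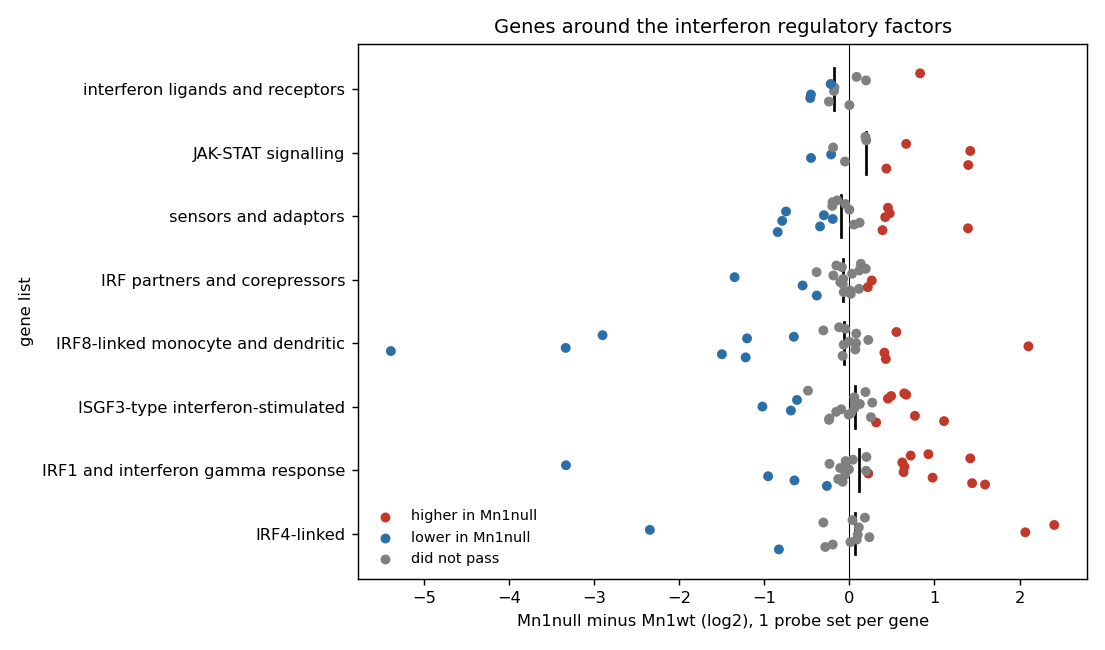
Mn1null minus Mn1wt (log2) for the genes of 8 lists around the family, 1 probe set per gene; each point is a gene, red where it rose, blue where it fell and grey where it did not pass, and the black bar is the median of the list. The medians lie between -0.18 and 0.19, while single genes reach from -5.39 (Ctss) to 2.41 (Pdcd1lg2).

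Genes that ISGF3, the complex of IRF9, is known to induce moved in both directions. Of 25, 7 rose and 3 fell, and the median was 0.063. Cmpk2 rose 2.16-fold, Ifi35 1.71-fold and Trim30a 1.56-fold (limma adjusted p = 0.00127, 1.24e-04 and 4.26e-04), each with a second probe set that rose by a similar amount. The 2′-5′ oligoadenylate synthetase gene Oas1a fell 2.03-fold, the antiviral membrane protein gene Ifitm3 1.61-fold and Parp14 1.53-fold (limma adjusted p = 6.49e-05, 1.99e-04 and 0.00383), though the second Parp14 probe set gave 0.016 (adjusted p = 0.917). Classical members such as Ifit1, Mx1, Oasl2 and Rtp4 had means under 4.2 in both groups. Others had higher signals. Ifit2 had means of 6.80 in Mn1null and 6.79 in Mn1wt, and Oas2 6.12 and 6.06, and neither passed. Rsad2 rose by 0.45 on its probe set of highest mean (limma adjusted p = 0.0044).

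Of 24 genes of the IRF1 and interferon gamma response, 10 rose and 4 fell (median 0.12). Casp1, the inflammatory caspase, stood at 9.65 ± 0.074 in Mn1null and 8.05 ± 0.056 in Mn1wt, a 3.02-fold rise (limma adjusted p = 3.49e-06). Cd274, which encodes the checkpoint ligand PD-L1, rose 2.72-fold (limma adjusted p = 6.08e-06). Nlrc5, the transactivator of MHC class I genes, fell to 3.70 ± 0.051 in Mn1null, below the 30th percentile of probe set means, against 7.03 ± 0.19 in Mn1wt (limma adjusted p = 6.54e-07). Genes of class I presentation in this list did not all follow Nlrc5. Among those recomputed under the alternatives, Tapbp rose by 0.89 to 0.99, Tap2 by 0.68 to 0.76 and Psmb8 by 0.49 to 0.66. B2m was lower, as Nlrc5 was (-0.29 to -0.20), and lost its call under 2 of 16 alternatives (limma adjusted p up to 0.0503). Tap1, Psmb9, Psmb10 and Psme1 of this list were not recomputed. The guanylate-binding protein gene Gbp3 fell 1.94-fold and the chemokine gene Cxcl10 1.56-fold.

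By root mean square distance between centred log2 values over the 6 arrays, the probe sets of other genes most like Irf8 (1448452_at) were those of Zfp105 (0.035), Hbb-y (0.046), Mansc1 (0.049) and Hoxa5 (0.062). Those most like Irf9 were Taok3 (0.054), Slc25a23 (0.057), Thap6 (0.058) and Uhrf2 (0.058). With 2 groups, such likeness mostly records a difference of similar size between the groups, and it is a description only.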

How the data were processed

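Each of the 6 samples was read on its own one-colour Affymetrix array. The deposited table holds log2 values for every probe set, which the authors computed by RMA, per the submitters' processing notes. This method removes overall differences in RNA amount and compresses low signals. Its version was not stated, and scanner files were not used here. Of 45101 probe sets, 64 controls were left out of the tests. In the platform annotation 34945 probe sets named 1 gene, and 34741 of these matched RefSeq, with 0 symbols changed. List symbols were updated through RefSeq synonyms.

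limma 3.58.1 in R 4.3.3 (lmFit and eBayes) compared Mn1null with Mn1wt on all 45037 other probe sets, without a filter or a block, and was tested on simulated data. Pairs of probe sets of the same gene were compared with exact permutation tests. A fold is 2 to the power of the log2 difference; near the 30th percentile of probe set means (4.07) it understates the change. The number of arrays limits the precision. Members, lists and tests were chosen with earlier results of these data known. The text names all member probe sets, up to 3 called genes per direction of each list (the 2 smallest p and the largest other difference), some of the markers and the 4 nearest genes by distance. A few other list genes are named for low signals or beside the named genes. These and the markers named were chosen after their values were seen. Alternatives were filters, probe set rules, normalizations, variance models, a block for the replicate number, an adjusted p of 0.01, and leaving out arrays one at a time.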

Additional observations from a re-analysis of the deposited data

How the results depend on the processing

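Both Irf8 probe sets, the Irf5 probe set 1449678_at and Irf9 kept their direction and their call under every alternative in which they were measured. On the probe sets themselves, the falls ranged from -1.85 to -1.73 (1448452_at) and -1.56 to -1.40 (1416714_at) for Irf8. That of Irf5 ranged from -0.60 to -0.45, and the rise of Irf9 from 0.46 to 0.64. The mean of both Irf8 probe sets gave -1.64. Irf1 also lost its call with quantile normalization (-0.26, limma adjusted p = 0.0534), and Irf1 and Irf2 did at an adjusted p of 0.01. Of the Irf3 probe sets that were not called, 1426111_x_at was called under both filters on mean signal (30th and 50th percentile; adjusted p = 0.0417 and 0.022), with 1 probe set per gene and with an intensity trend, 1435271_at under both filters and 1438721_a_at under the stricter one. The mean of the probe sets of a gene gave -0.13 for Irf3, against 0.21 on 1435271_at alone, -0.25 for Irf5 (limma adjusted p = 0.00867), against 0.016 on 1460231_at alone, -0.051 for Irf4, against 0.0089 on 1421173_at alone, and -0.013 for Ptprc. Uncalled values near 0 changed sign for 1460231_at with quantile normalization (-0.0297) and for 1421173_at with median centring (-0.000767) and array weights (-0.065). When each array was left out, these ranged from -0.026 to 0.062 for 1460231_at, from -0.16 to 0.24 for 1421173_at and from -0.22 to 0.0039 for 1421174_at.

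The 1 probe set of the family that rose became 2 under either filter. With limma on probe sets whose name has no suffix s, x or a, 0 rose and 3 fell (1 was higher at an unadjusted p under 0.05). Irf1, Irf2, Irf7 and Irf9 have no probe set among these, so they were not measured there. Without single arrays, 1 rose and 4 to 6 fell. Of the lists, partners and corepressors had 5 called genes, and 8 under the 50th percentile filter or with mean probe sets, 10 with an intensity trend, 3 at an adjusted p of 0.01 and 3 to 5 without single arrays. The interferon gamma response had 14 called genes, and 8 with probe sets that have no suffix. Same-numbered replicates did not deviate together (correlations of -0.036, 0.078 and 0.023 for numbers 1, 2 and 3). The replicate block gave 1 rise and 6 falls in the family and changed no member's call. Among the other list and marker genes recomputed, 9 lost a call under at least 1 alternative (Ifngr1, Stat2, Ptpn6, Tlr4, Etv6, Irf2bp2, Itgax, B2m and Sting1), and Mn1 and Kit gained one. Values near the low end of the scale limit what could be seen for Irf4 and several interferon-stimulated genes. For Irf7, whose means (5.07 in Mn1null and 4.86 in Mn1wt) were only somewhat below the median of all probe sets, the 95% interval was wide (-0.078 to 0.49).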

Other observations

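Genes linked to IRF4 were described although Irf4 itself lay at the low end of the scale. Of 14 read, 2 rose and 2 fell, with a median of 0.061. Pdcd1lg2, which encodes the checkpoint ligand PD-L2, stood at 6.99 ± 0.15 in Mn1null and 4.58 ± 0.11 in Mn1wt (SD, n = 3 each), a 5.31-fold rise (limma adjusted p = 2.62e-06). The cytokine gene Il4 rose 4.19-fold (limma adjusted p = 5.35e-05). The macrophage lectin gene Mgl2 fell 5.09-fold (limma adjusted p = 6.59e-06), and the arginase gene Arg1 fell by 0.83, to a Mn1null mean of 3.67 below the 30th percentile of probe set means. The plasma cell marker Sdc1 fell by 2.95, while Jchain and Tnfrsf17 had means under 3.8 in both groups.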
